A study of Mus musculus with 6 samples.

Results

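Maf/Clbn2 neurons are 1 of 38 neuron subtypes in a single-nucleus RNA data set of the mouse spinal cord. They were taken as the nuclei that the authors' deposited annotation calls neurons and assigns to the subtype Maf/Clbn2, a spelling kept here although the gene is Cbln2. The subtype held 146 of 6035 neurons and of 18514 nuclei in all. Of the 38 subtypes, 18 were larger. All 6 samples came from wild-type C57BL/6 mice with a severe thoracic contusion that left the legs paralysed. Tissue followed 30 min of treadmill exercise. In 3 samples, TESS, the exercise was enabled by targeted epidural electrical stimulation, and in the other 3, CON, labelled paralyzed, there was no stimulation. Agonists acting on 5-HT1a serotonin receptors and D1 dopamine receptors accompanied TESS, and the series text leaves unclear whether CON mice had them too. The samples are labelled as lumbar cord, although the thoracic injury site is what the extraction text describes. Age and sex are not given. Nothing in the labels ties a sample to its own animal, and p-values here then measure the spread between samples only.

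Excitatory interneurons of the dorsal horn load glutamate into synaptic vesicles with the transporter encoded by Slc17a6. Those of the deeper laminae receive input from low-threshold touch receptors and from descending pathways, and many express the transcription factor gene Maf or the peptide gene Cck. Cbln2 encodes a secreted cerebellin, which joins presynaptic neurexins to postsynaptic delta glutamate receptors and so bridges the synapse.

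The subtype held 50, 17 and 36 nuclei in CON 1, CON 2 and CON 3, and 14, 15 and 14 in TESS 1, TESS 2 and TESS 3. Their summed counts of unique molecular identifiers (UMIs, 1 per captured RNA molecule) were 136032, 53098 and 83213 in CON and 38735, 24334 and 21999 in TESS. TESS levels therefore rest on fewer nuclei and fewer molecules than CON levels. The batch number that the metadata give was 3 for CON 1, CON 2 and TESS 1, 4 for CON 3, 2 for TESS 2 and 1 for TESS 3, and what it stands for is not given in the sources used here. Across the whole data set 205 cell barcodes occurred in more than 1 library. None was shared between Maf/Clbn2 nuclei, and 1 Maf/Clbn2 nucleus had a barcode that another library also holds.

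Maf is on the minus strand of chromosome 8 (chr8:115682942-115707794, GRCm38), in a stretch where the gene Gm15655 is annotated on the other strand. It encodes a basic leucine zipper transcription factor. Maf/Clbn2 nuclei held 35, 41 and 50 Maf UMIs in CON and 27, 17 and 9 in TESS. As counts per 1000000 UMIs of the sample's subtype sum (CPM, the level used throughout) this was 257, 772 and 601 in CON and 697, 699 and 409 in TESS. CON 1 was the lowest sample and CON 2 the highest, so the groups overlapped. Other excitatory neurons, the 2940 nuclei of the other subtypes whose transcripts of glutamate transporters exceed those of inhibitory transmitter genes, had between 48.6 and 115 CPM. Every sample of Maf/Clbn2 nuclei was above every sample of the other excitatory neurons.

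Cbln2 (chr18:86711110-86718283, plus strand) had 19, 9 and 12 UMIs in CON and 7, 0 and 8 in TESS. The level was 140, 169 and 144 CPM in CON and 181, 0 and 364 CPM in TESS, so TESS held both the highest and the lowest sample. With 0 of 24334 UMIs, TESS 2 allows up to 123 CPM, from 3 counts. That limit covers counting error only. Other excitatory neurons lay between 38.4 and 65.0 CPM.

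Slc17a6 (chr7:51622006-51671119, plus strand) had 52, 14 and 24 UMIs in CON and 9, 6 and 4 in TESS, or 382, 264 and 288 CPM against 232, 247 and 182 CPM. The CON samples were all above the TESS samples. The log2 difference of TESS from CON was -0.59 ± 0.40 (SE, n = 3 per group) and did not pass in edgeR (adjusted p = 0.679). The mean over the 6 samples was 266 CPM in Maf/Clbn2 nuclei and 280 CPM in other excitatory neurons. Summed over all samples, the transcripts of the glutamate transporter genes Slc17a6 and Slc17a8 came to 319 CPM and those of the inhibitory genes Gad1, Gad2, Slc32a1 and Slc6a5 to 28.0 CPM. The cholinergic genes Chat and Slc5a7 were at 0. By these genes, which also set the class of every other subtype here, the nuclei were excitatory.

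**Figure D1:**
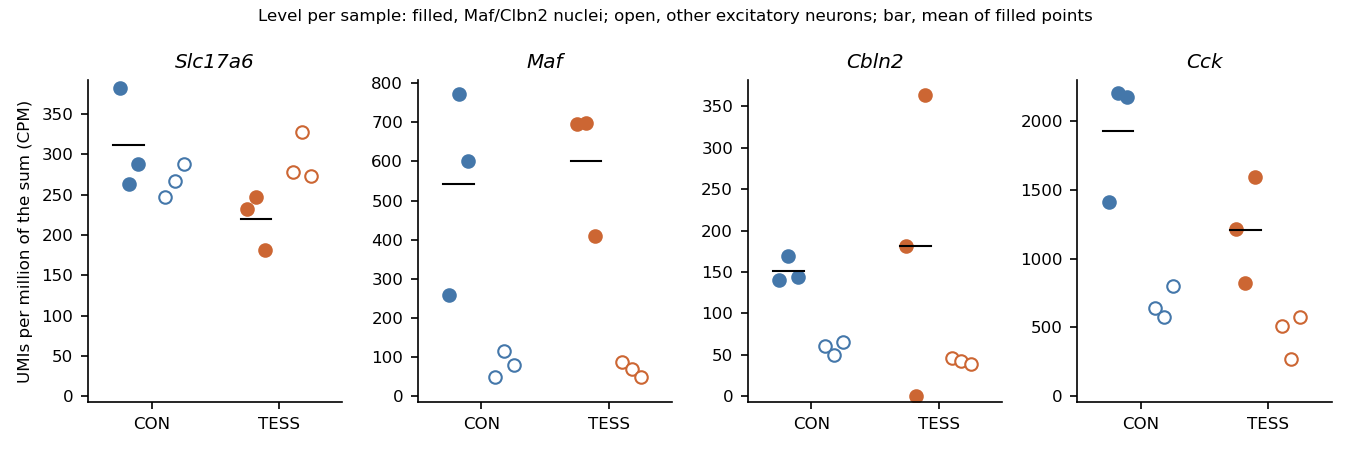
Level of Slc17a6, Maf, Cbln2 and Cck (CPM, vertical axis) in each CON and TESS sample, with filled points for Maf/Clbn2 nuclei, open points for other excitatory neurons and a bar at the mean of the filled points. Maf in Maf/Clbn2 nuclei lies between 257 and 772 CPM, above all open points, while Slc17a6 does not stand above them.

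At least 1 Maf UMI was found in 92 of 146 nuclei (63.0%, exact binomial 95% interval 54.6% to 70.8%). The share was 8.47% in other excitatory neurons, 7.85% in inhibitory neurons and 0.724% in oligodendrocytes, given here as the background of a cell type that is no neuron. Median UMIs per nucleus were 2212.5, 1466, 1891.5 and 433 in the same order. After each nucleus was thinned to 500 UMIs, the shares with Maf were 26.0% in Maf/Clbn2 nuclei, 2.77% in other excitatory neurons (2848 of 2940 nuclei deep enough), 1.87% in inhibitory neurons (2841 of 2880) and 0.400% in oligodendrocytes (1500 nuclei drawn at random from those deep enough). All 146 Maf/Clbn2 nuclei were deep enough to enter that comparison. By sample the unthinned share ran from 35.7% (5 of 14 nuclei, TESS 3) and 46.0% (23 of 50, CON 1) to 88.2% (15 of 17, CON 2).

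Cbln2 was found in 36 nuclei (24.7%), against 7.24% of other excitatory neurons and 0.317% of oligodendrocytes, and Slc17a6 in 73 (50%), against 33.3% and 1.06%. Thinning to 500 UMIs brought the Cbln2 share to 11.6% against 2.77% of other excitatory neurons, and the Slc17a6 share to 11.6% against 12.2%. Maf and Cbln2 were found together in 24 nuclei, Maf without Cbln2 in 68, Cbln2 without Maf in 12, and neither in 42. The nuclei without a Maf UMI resembled the rest in several genes. The 54 nuclei without Maf (median 2056.5 UMIs) had 1835 CPM of Cck, 152 CPM of Cbln2 and 4361 CPM of the long noncoding RNA gene Gm28928, against 1552, 155 and 4899 CPM in the 92 with Maf (median 2250.5 UMIs). Levels were lower without Maf for the receptor tyrosine kinase gene Erbb4 (1509 against 2563 CPM), for Adarb2 (1555 against 2563 CPM), for the diacylglycerol kinase gene Dgkb (1039 against 1716 CPM) and for the nuclear receptor gene Rorb (190 against 417 CPM). Of the 54 nuclei, 27 came from CON 1.

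Maf and Cbln2 were each shared with other subtypes. Over the nuclei of all samples, Maf/Clbn2 had 501 CPM of Maf, rank 2 of 38 behind Rora/Parp8 (829 CPM) and just above Rora/Adarb2 (468 CPM), where the median of subtypes was 20.7 CPM. It had 154 CPM of Cbln2, rank 3 behind Cck/Cpne4 (285 CPM) and Grp (183 CPM), with a median of 23.0 CPM. For Slc17a6 it had rank 4 (305 CPM, median 206 CPM). The spread over samples of these subtypes was not compared, and the sums hold more CON than TESS nuclei of Maf/Clbn2, so neighbouring ranks are not shown to differ.

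**Figure D2:**
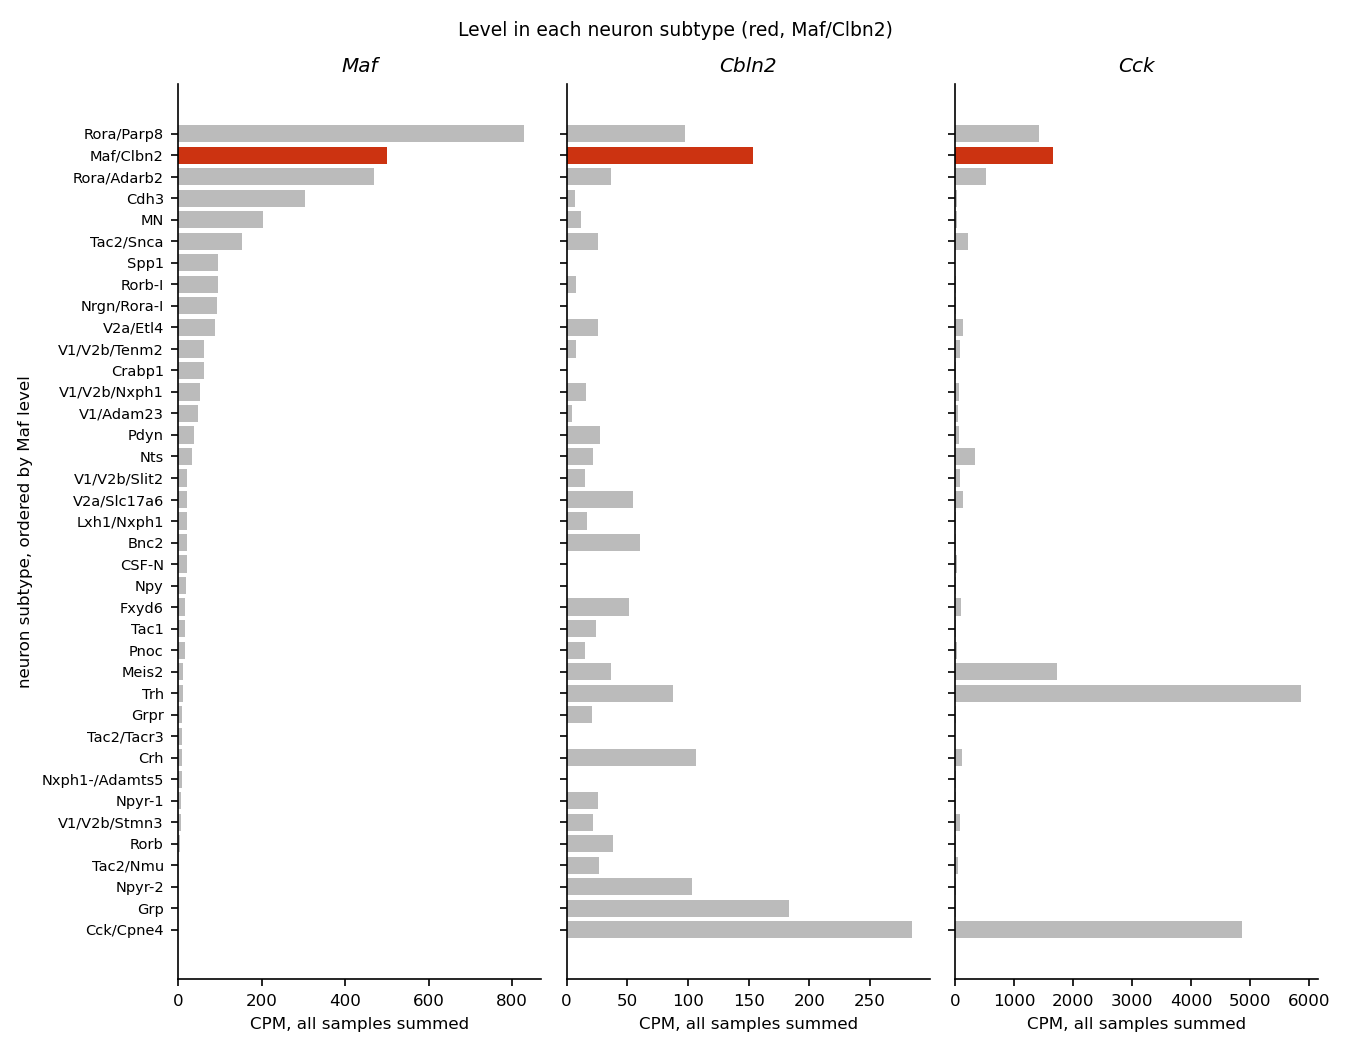
Level of Maf, Cbln2 and Cck (CPM over the nuclei of all samples, horizontal axes starting at 0) in the 38 neuron subtypes, ordered by Maf, with Maf/Clbn2 in red. Maf/Clbn2 has 501 CPM of Maf, the second of the 38 bars, while Cck/Cpne4 has the highest Cbln2 bar and Trh the highest Cck bar.

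The genes that set the subtype apart were taken from 2388 genes with at least 30 UMIs in it, as the log2 ratio of mean CPM, plus 10 CPM, over other excitatory neurons. The authors clustered nuclei on their transcripts, so these ratios describe the cluster and were not tested. In all 6 samples 211 genes were higher and 177 lower, and 49 and 41 of these differed by over 1 log2 unit. Of the 20 highest genes described next, the last was Dgkb (1.32).

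Among the 20 genes with the largest ratio, Maf led with a mean of 573 CPM against 74.2 CPM (log2 ratio 2.79). Rorb, a nuclear receptor gene, had 344 CPM against 60.6 CPM (2.33), Hlf, a leucine zipper factor of the clock output family, 103 against 20.1 CPM (1.91), and Nfib, a nuclear factor I gene, 224 against 74.2 CPM (1.47). The zinc finger gene Zfp804b had 2134 against 760 CPM (1.48). Over all nuclei Maf/Clbn2 ranked 6 of 38 for Rorb (highest in Rorb-I, 1147 CPM), 6 for Zfp804b (Cck/Cpne4, 4872 CPM) and 7 for Nfib (Pnoc, 446 CPM). Adarb2, a catalytically inactive relative of RNA-editing enzymes, had 2347 against 652 CPM (1.83). The nuclear receptor gene Rora, not among the 20, had 2664 CPM, above other excitatory neurons (1518 CPM) in 6 of 6 samples.

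Several others of the 20 are described singly. Mgll, which encodes the lipase that degrades the endocannabinoid 2-arachidonoylglycerol, had 187 against 29.3 CPM (2.33) and was found in 32.2% of nuclei against 4.29%. Erbb4, a receptor for neuregulins, had 2176 against 755 CPM (1.51). Over all nuclei its level in Maf/Clbn2 ranked 3 of 38, behind Cck/Cpne4 (6878 CPM) and Npyr-2 (3150 CPM). Fgf10 encodes a fibroblast growth factor (135 against 36.6 CPM, 1.64), Lrrk2 a kinase (168 against 48.5 CPM, 1.61), Htra1 a secreted protease (144 against 22.1 CPM, 2.26) and Pex5l a protein that regulates HCN channels (799 against 301 CPM, 1.38). The reads of Htra1 cannot be told apart from those of the overlapping Fgfr2 without knowing the strand of counting. The most abundant of the 20 was Gm28928, a lincRNA gene on chromosome 1 (chr1:124505757-124846039, minus strand), with a mean of 4908 CPM against 1054 CPM, in 93.8% of nuclei. Like Maf, it was highest in Rora/Parp8 (5724 CPM over all nuclei), with Maf/Clbn2 (4700 CPM) and Rora/Adarb2 (4169 CPM) next. Adarb2 was highest in the same 3 subtypes (3739 CPM in Rora/Parp8, 2649 in Rora/Adarb2 and 2191 in Maf/Clbn2). Lrrk2 ranked 1 of 38 in Maf/Clbn2 by a narrow margin (157 CPM, against 156 CPM in Rora/Parp8). Every other gene of the 20 was higher in at least 1 other subtype.

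Low genes were drawn from the same 2388 genes. A gene nearly absent from the subtype, such as Tac1 (0 UMIs), could therefore not appear among them. The low genes were led by the peptide gene Sst, with a mean of 98.7 CPM against 1953 CPM in other excitatory neurons (log2 ratio -4.17). The others were Cntnap5c (-2.41), the Notch coactivator gene Maml3 (-2.20), the transcription factor gene Ebf2 (-1.94), the netrin receptor gene Unc5d (-1.94), the cadherin gene Cdh10 (-1.93), the calcium channel gene Cacna1e (-1.85) and the GABA-A receptor subunit gene Gabrg3 (-1.82). Ebf1, of the same family as Ebf2, was at 2704 CPM against 3118 CPM, a much smaller gap.

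**Figure D3:**
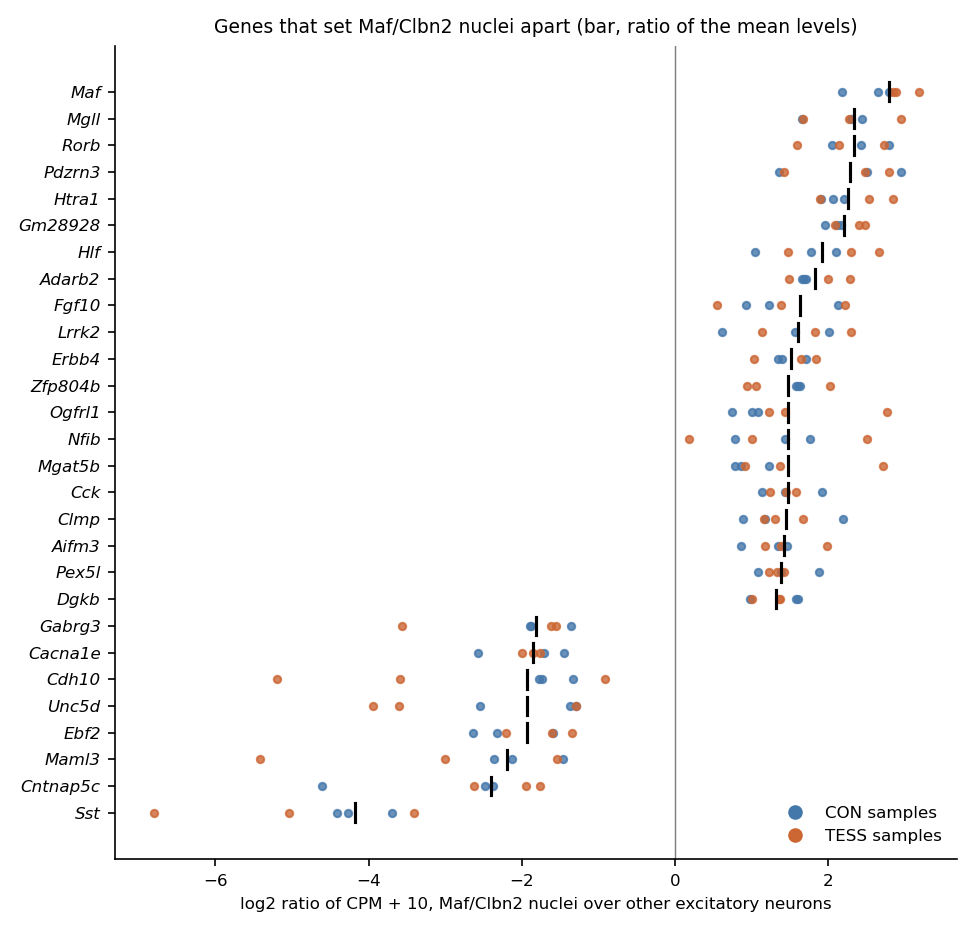
Log2 ratio of CPM + 10 in Maf/Clbn2 nuclei over other excitatory neurons (horizontal axis) for the 20 highest and 8 lowest genes, with 1 point per sample coloured by group and a bar at the ratio of the mean levels. All points lie on the side of 0 that the bar does, which the choice of genes required, and Sst is the lowest at -4.17. Genes with under 30 UMIs in the subtype were not considered.

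Cck (chr9:121489824-121495694, minus strand), the gene of the peptide cholecystokinin, was the main neuropeptide transcript of the subtype by UMIs, with 592 of the 847 UMIs of the 23 listed peptide genes. It was found in 78.8% of nuclei, against 21.4% of other excitatory neurons, 6.67% of inhibitory neurons and 1.23% of oligodendrocytes, and thinned to 500 UMIs in 46.6%, 13.3%, 2.15% and 0.867%. By level it had rank 4 of 38 (1656 CPM over all nuclei), behind Trh (5851 CPM), Cck/Cpne4 (4852 CPM) and Meis2 (1732 CPM). That sum holds more CON than TESS nuclei, Cck stood at 1930 ± 449 CPM in CON and 1209 ± 385 CPM in TESS (SD, n = 3), and the place next to Meis2 is not shown to differ. Nts, the neurotensin gene, had 87 UMIs in 22 nuclei, and Nppc, the gene of C-type natriuretic peptide, 66. The tachykinin gene Tac2 had 26 UMIs, 23 of them in CON 2. Gal had 6 UMIs. Of 18 listed genes of superficial dorsal horn excitatory neurons, 14 had a UMI, and their summed level was 655 ± 380 CPM in CON (SD, n = 3) and 562 ± 144 CPM in TESS, below the 4478 and 3168 CPM of other excitatory neurons. The 19 listed genes of deep dorsal horn excitatory neurons in the table summed to 10418 ± 594 CPM in CON and 10266 ± 710 CPM in TESS, above 8296 and 7666 CPM. Such sums rest largely on a few abundant genes. Of the 3700 UMIs of the deep list, Ebf1 gave 1021, Rora 923 and Cck 592. Rora, Cck (1569 against 561 CPM) and Maf (573 against 74.2 CPM) were above other excitatory neurons, while Ebf1 was below. In the superficial list Sst alone stood at 98.7 against 1953 CPM. The sums do not show how most members stood. Some of the listed genes named the cluster, so the comparison is a description.

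Upstream sequence is shown for Cck and Rorb because, of the 14 among the 20 genes with a promoter in the RefSeq table (GRCm38.p6), these held the letters TGCTGAC, the core of the DNA element that Maf proteins recognise, on either strand in the 250 bases before the start. Of all 32851 promoters in the table, 3.81% hold those letters in the same window. The palindromic E-box CACGTG was searched as well (6.02% of promoters, here in Cck and Mgll), as was the cyclic AMP response element TGACGTCA (1.55%), found in Hlf. Capitals mark each match. No match overlaps another. The windows are chr9:121495695-121495944 for Cck and chr19:19111197-19111446 for Rorb, both on the minus strand and written 5′ to 3′.
Cck: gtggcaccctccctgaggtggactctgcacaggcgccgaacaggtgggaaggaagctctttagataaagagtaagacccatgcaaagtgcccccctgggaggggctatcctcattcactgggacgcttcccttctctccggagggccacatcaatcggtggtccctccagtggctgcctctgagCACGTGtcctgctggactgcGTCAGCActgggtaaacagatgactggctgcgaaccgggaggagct
Rorb: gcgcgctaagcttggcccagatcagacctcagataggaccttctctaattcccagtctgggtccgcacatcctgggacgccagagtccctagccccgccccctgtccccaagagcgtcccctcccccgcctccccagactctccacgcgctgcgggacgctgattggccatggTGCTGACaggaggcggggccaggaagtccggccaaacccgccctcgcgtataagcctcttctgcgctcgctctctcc
A match in these letters is a description of the sequence, and no binding was measured. A second Rorb start in the table held no match.

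Receptor and channel genes gave a further profile of the subtype. Among glutamate receptor genes, Grin2a, an NMDA receptor subunit gene, was higher than in other excitatory neurons in 6 of 6 samples (755 against 478 CPM), as was Grin1 (661 against 505 CPM), while Grin2b (362 against 580 CPM), Grin3a (167 against 567 CPM), the kainate receptor gene Grik2 (536 against 839 CPM) and Grm7, a metabotropic receptor gene (1781 against 2519 CPM), were lower in 6 of 6. Among inhibitory receptor genes, the glycine receptor gene Glra1 (835 against 507 CPM) and Gabra5 (221 against 117 CPM) were higher in 6 of 6, and Gabrb1 (408 against 712 CPM) was lower in 6 of 6. Among partners of cerebellins, the neurexin gene Nrxn3 had 2650 CPM (2178 CPM in other excitatory neurons) and the delta receptor gene Grid1 694 CPM (780 CPM). The serotonin receptor genes Htr2c (109 UMIs), Htr7 (32) and Htr1f (22) were found, whereas Htr1a, the target of 1 of the agonists, had 1 UMI and Drd1, the target of the other, had 0 of 357411 UMIs, which allows up to 8.39 CPM from 3 counts.

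The nuclei were next placed by likelihood against the summed profile of each of the 38 neuron subtypes, leaving the nucleus itself out of its own. Their own subtype was the best match for 114 of 146 nuclei (78.1%), from 72.0% in CON 1 to 86.1% in CON 3. The others matched V2a/Slc17a6 (14 nuclei), V2a/Etl4 (8), Rora/Parp8 (5), V1/Adam23 (2), V1/V2b/Tenm2 (2) and V1/V2b/Slit2 (1). The profiles most like that of the subtype, by Pearson correlation of log2(CPM + 10) across 15339 genes among subtypes with at least 50 nuclei, were V2a/Etl4 (0.935), V2a/Slc17a6 (0.934) and V1/V2b/Slit2 (0.933). Genes are not independent replicates and deeper profiles correlate more highly, so these are descriptions. The placement is a description too, because the authors clustered nuclei on these transcripts. Nuclei of other subtypes were not placed, so the 78.1% has no share to be read against.

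Transcripts of other cell types were low but present. Inhibitory transmitter genes gave 10 UMIs, in 10 nuclei. Oligodendrocyte genes gave 323 UMIs, with 12 of 12 listed genes present, among them Mbp (98). Their summed level was 640, 678 and 1346 CPM in CON and 1110, 658 and 1318 CPM in TESS. Microglia genes gave 37, 14 and 15 UMIs in CON and 1, 1 and 4 in TESS, or 180 to 272 CPM against 25.8 to 182 CPM. Of 10 microglia genes 7 were present, with Cx3cr1 and Ptprc at 0. In other excitatory neurons the microglia sums had means of 149 CPM in CON and 139 CPM in TESS. The oligodendrocyte sums there had means of 978 CPM in CON and 1041 CPM in TESS. Most of the 303 UMIs of oligodendrocyte precursor genes were of Lhfpl3 (280), with Cspg4 and Vcan at 0, most of the 274 of astrocyte genes were of Gpc5 (189), with 1 UMI of Slc1a3, and most of the 203 of endothelial genes were of Bsg (197), with Cldn5 at 0. The part of such transcripts in the differences given below was not tested.

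Maf/Clbn2 nuclei made up 4.19%, 1.55% and 2.91% of the neurons of the CON samples and 1.90%, 1.40% and 1.99% of those of the TESS samples. The groups overlapped, because CON 2 lay among the TESS samples. The mean was 2.88 ± 1.32% in CON and 1.77 ± 0.32% in TESS (SD, n = 3), a difference of -1.12 percentage points (two-sided exact permutation test, p = 0.3, where 3 against 3 samples cannot go below 0.1). Without CON 1 the difference was -0.467 points, and without CON 2 it was -1.78 points. Within batch 3 it was -0.966 points. A share is relative to the other neurons recovered, and fewer nuclei of a subtype cannot be told apart from more of the others. The median UMIs per nucleus were 2351.5, 2837 and 2071 in CON and 2473, 1446 and 1542.5 in TESS (difference of means -599, two-sided exact permutation p = 0.3).

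**Figure D4:**
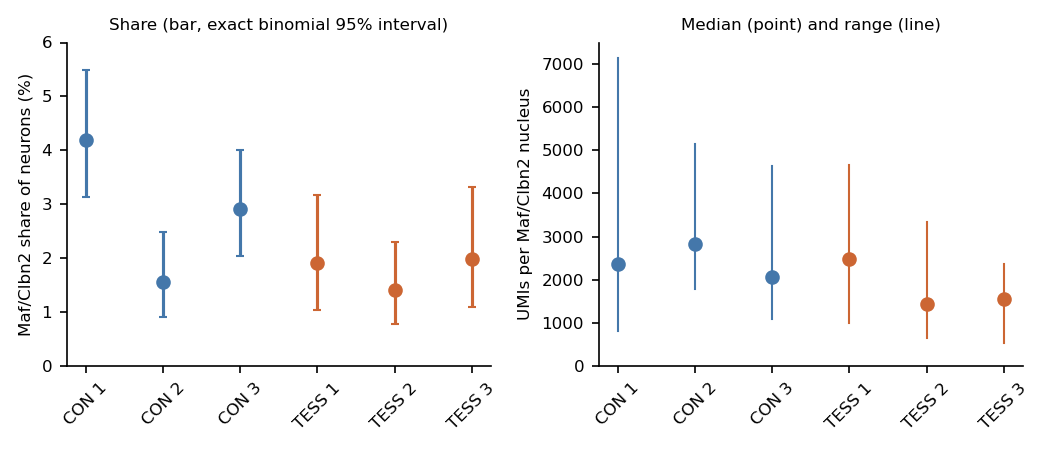
Left, Maf/Clbn2 nuclei as a percentage of the neurons of each sample, with exact binomial 95% intervals. Right, the median (point) and range (line) of UMIs per Maf/Clbn2 nucleus. CON 1 has the highest share at 4.19%, and TESS 2 and TESS 3 have the lowest median depths, 1446 and 1542.5 UMIs.

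The comparison of TESS with CON asked which transcripts of these neurons differed after 30 min of stimulated treadmill exercise. A single gene, Tshz3, rose (1 of 788 tested, 0.127%), and a pair of antisense noncoding genes, Gm20642 and Gm11418, fell (0.254%). These were 3 of 788 genes tested (0.381%) at an adjusted p below 0.05 (edgeR quasi-likelihood test, Benjamini-Hochberg adjustment over the genes tested). At an unadjusted p below 0.05 there were 78. The groups did not overlap in 124 genes (15.7%), 405 genes were higher in TESS and 383 lower, and the median log2 difference was 0.01. The low-count filter left genes with at least 52 UMIs each, and left out some with more that were unevenly spread over samples, such as Nts (87 UMIs).

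Tshz3 (chr7:36698118-36773553, plus strand), a zinc finger transcription factor gene of the teashirt family, had 41, 14 and 31 UMIs in CON and 38, 15 and 21 in TESS. Its level was 301, 264 and 373 CPM in CON and 981, 616 and 955 CPM in TESS. All TESS samples were above all CON samples, with TESS 2 the lowest of them. The log2 difference was 1.39 ± 0.28 (SE, n = 3 per group, edgeR adjusted p = 0.00113). Within batch 3, with TESS 1 as the lone stimulated sample, it was 1.66 (edgeR adjusted p = 0.0180, the sample being assumed to vary like the CON samples). Without TESS 1 it was 1.22 with an edgeR adjusted p of 0.150. The call was also lost without a low-count filter (edgeR adjusted p = 0.265), with DESeq2 (DESeq2 adjusted p = 0.322) and with batch as a term. In all it was lost in 4 of 14 alternatives. Several noncoding genes lie within Tshz3, so some of its reads may be theirs. In other excitatory neurons of the same samples Tshz3 also rose, by 0.62 ± 0.14 (edgeR adjusted p = 0.0172).

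Gm20642 (chr14:39220071-39250430, plus strand) is annotated as antisense and lies opposite Nrg3, the gene of the neuregulin ligand of Erbb4. It had 153, 80 and 127 UMIs in CON and 31, 11 and 9 in TESS, or 1125, 1507 and 1526 CPM against 800, 452 and 409 CPM. Each TESS sample was below each CON sample, and TESS 1 was the nearest to them. It fell by 1.27 ± 0.27 on the log2 scale (edgeR adjusted p = 0.00125). The log2 difference was -0.79 within batch 3, with an edgeR adjusted p of 0.748, and -1.15 without TESS 2, with an edgeR adjusted p of 0.455. Nrg3 itself was at 6629 ± 666 CPM in CON and 5499 ± 681 CPM in TESS (SD, n = 3, log2 difference -0.32 ± 0.21, edgeR adjusted p = 0.662). Nrg3os, another antisense gene opposite Nrg3, was at -0.83 ± 0.30 (edgeR adjusted p = 0.335). Whether counting used the strand is not given, so reads of these genes and of Nrg3 cannot be told apart with certainty.

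Gm11418 (chr11:81587361-81593478, plus strand) is an antisense gene opposite Asic2, which encodes an acid-sensing ion channel. It had 43, 21 and 33 UMIs in CON and 3, 1 and 5 in TESS, or 316, 396 and 397 CPM against 77.4, 41.1 and 227 CPM. The groups did not overlap, and TESS 3 was the nearest to CON. It fell by 1.80 ± 0.47 on the log2 scale (edgeR adjusted p = 0.0442), a call that was lost when CON 2, CON 3, TESS 1 or TESS 2 was left out (edgeR adjusted p from 0.105 to 0.475). It was also lost with total counts in place of TMM scaling (edgeR adjusted p = 0.0707), without a low-count filter (0.0519) and with a minimum count of 5 (0.0930), and in 11 of the 14 alternatives in all. Within batch 3 the log2 difference was -2.23 (edgeR adjusted p = 0.278). Asic2 was at 2070 ± 398 CPM in CON and 2632 ± 865 CPM in TESS (0.30 ± 0.21, edgeR adjusted p = 0.699), not in the direction of Gm11418. In other excitatory neurons Gm20642 fell by 0.64 and Gm11418 by 0.67 (edgeR adjusted p = 0.0173 and 0.00595).

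With batch as a term in the fit, edgeR called 0 genes, with 33 at an unadjusted p below 0.05, and DESeq2 called 0, with 171. Every sample outside batch 3 is the only one of its batch, so batch and group can be compared in 3 samples only. In other excitatory neurons edgeR called 116 of 9250 genes (1.25%), 29 of them higher in TESS (0.314%) and 87 lower (0.941%), with 2940 nuclei behind the sums.

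The genes with the next smallest p in each direction did not pass. On the higher side were Ccdc88a, an actin-binding protein gene (0.94 ± 0.28, adjusted p = 0.156), Unc80, a subunit gene of the sodium leak channel (0.89 ± 0.27, adjusted p = 0.156), Clstn2, a synaptic calsyntenin gene (1.08 ± 0.35), Opcml, a cell adhesion gene (0.58 ± 0.22), Tenm4, a teneurin gene (0.71 ± 0.27), Rasgrf1, a calcium-regulated exchange factor gene for Ras (0.81 ± 0.31), and Csmd2 (0.96 ± 0.37). Levels of Ccdc88a were 434, 301 and 385 CPM in CON and 671, 699 and 1000 CPM in TESS, without overlap. Unc80, Clstn2 and Csmd2 did not overlap either. Opcml, Tenm4 and Rasgrf1 did, because TESS 1 or TESS 3 lay within the range of the CON samples.

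On the lower side Glrb, the beta subunit gene of the glycine receptor, had 75, 25 and 58 UMIs in CON and 15, 3 and 6 in TESS, or 551, 471 and 697 CPM against 387, 123 and 273 CPM. The groups did not overlap, and the log2 difference of -1.10 ± 0.34 did not pass (edgeR adjusted p = 0.156). Sh3kbp1, an endocytic adaptor gene, stood at -1.67 ± 0.52, the lincRNA gene Gm26835, opposite Hivep2, at -1.19 ± 0.38 and the lincRNA gene Malat1 at -0.73 ± 0.25. Malat1 was at 76444 CPM in CON 2 and between 26746 and 42541 CPM in the other samples, so that CON 2 held the highest share of this nuclear RNA.

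Cck was at 1411, 2203 and 2175 CPM in CON and 1213, 822 and 1591 CPM in TESS. TESS 3 was above CON 1, so the groups overlapped. The log2 difference was -0.72 ± 0.24 in Maf/Clbn2 nuclei (edgeR adjusted p = 0.199) and -0.62 ± 0.16 in other excitatory neurons (edgeR adjusted p = 0.0396). The share of nuclei with a Cck UMI was 82.0%, 82.4% and 83.3% in CON and 64.3%, 60.0% and 85.7% in TESS.

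**Figure D5:**
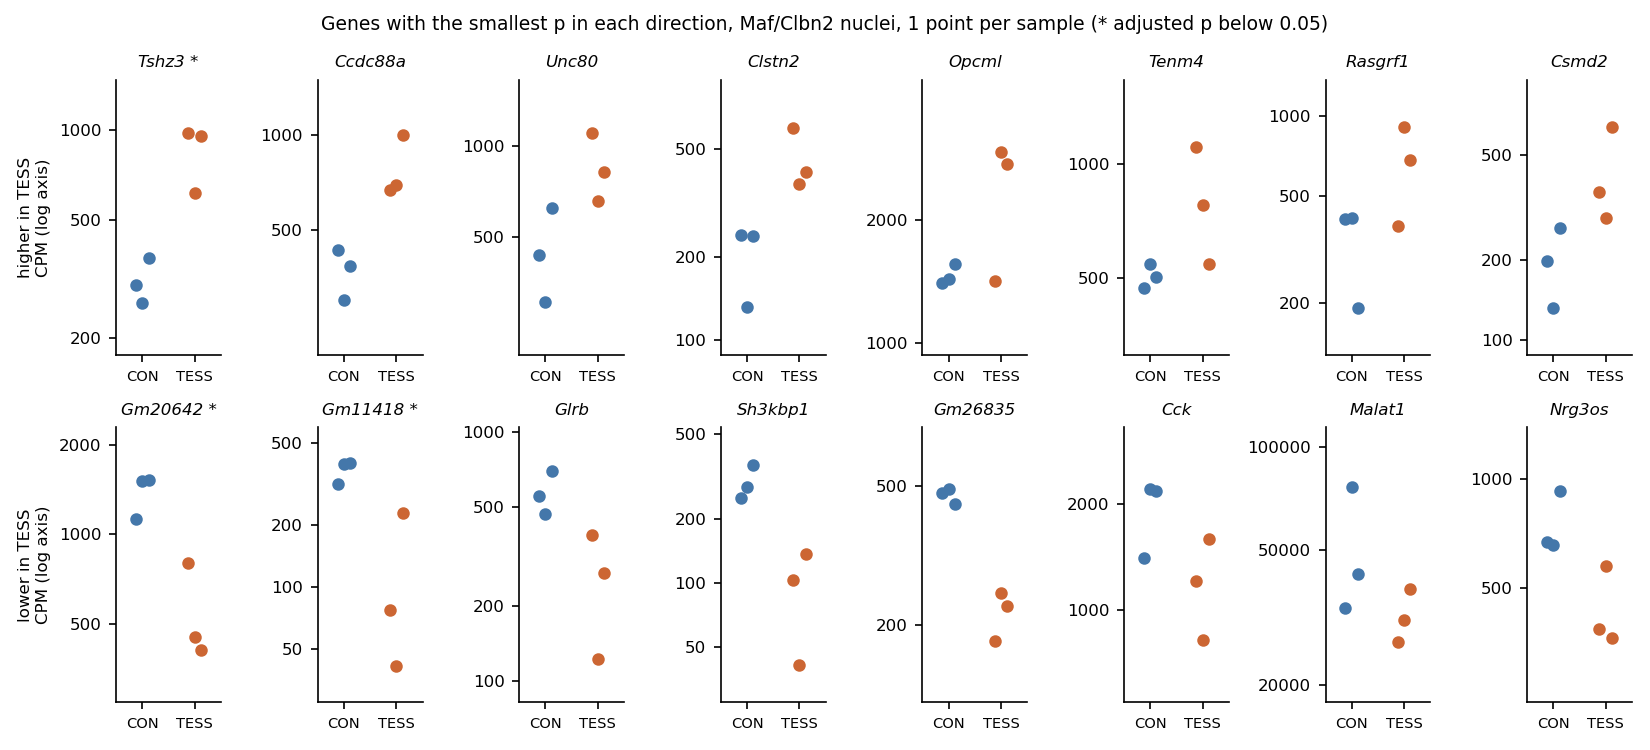
Level (CPM, log axis) in Maf/Clbn2 nuclei of each CON and TESS sample for the 8 genes with the smallest p in each direction, higher in TESS above and lower below, with a star for an adjusted p below 0.05. Tshz3, Gm20642 and Gm11418 carry a star and their groups do not overlap, while those of Cck do.

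The question of whether any gene responded differently in Maf/Clbn2 nuclei than in other excitatory neurons was tested as an interaction, with the sample as a block. edgeR called 0 of 788 genes (0%), with 59 at an unadjusted p below 0.05. The genes with the smallest p were Atp5o, which encodes a subunit of the ATP synthase (1.30 in Maf/Clbn2 nuclei and -0.44 in other excitatory neurons, difference 1.79 ± 0.48, adjusted p = 0.216), the netrin receptor gene Unc5c (0.56 and -0.26, adjusted p = 0.280), Sh3kbp1 (-1.67 and 0.06, adjusted p = 0.378), Tshz3 (1.39 and 0.62, difference 0.80 ± 0.28, adjusted p = 0.647) and the cystatin C gene Cst3 (0.44 and -0.46, adjusted p = 0.647). None passed, and the rise of Tshz3 is not shown to differ between the classes.

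Immediate early genes, which neurons transcribe within minutes of activity, were too rare for a test. Of 34 listed genes, 33 were measured and 23 had a UMI, with 88 UMIs in all and none of them tested. The sums were 26, 15 and 12 UMIs in CON and 16, 16 and 3 in TESS, or 191, 282 and 144 CPM against 413, 658 and 136 CPM. TESS 1 and TESS 2 were the highest samples and TESS 3 the lowest. The log2 ratio of the means (plus 10 CPM) was 0.93, and without TESS 2 it was 0.40. Per1, a clock gene that activity also induces, had 0, 2 and 3 UMIs in CON and 1, 5 and 2 in TESS. Fos had 3, 0 and 1 UMIs in CON and 3, 0 and 0 in TESS. Arc had 5 UMIs in all, Junb 2, and Egr1, Npas4 and Nr4a1 1 each, while Fosb had 0. Neither these genes nor their sum was tested between the groups.

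Other activity and stress lists had no called member, where 0.381% of all genes tested were called and few members of these lists could be tested. Of 22 delayed activity genes, 5 were tested, with a median log2 difference of 0.01, equal to the 0.01 of all genes tested to that precision. Glucocorticoid-response genes had no member tested. Their summed level was 485, 358 and 541 CPM in CON and 904, 863 and 773 CPM in TESS, from 203 UMIs, and the groups did not overlap. The metallothionein gene Mt1 was 46 and the kinase gene Sgk1 62 of those UMIs. In other excitatory neurons the same sum was 541, 558 and 717 CPM in CON and 663, 871 and 701 CPM in TESS. There the groups overlapped (means 605 and 745 CPM). A sum without overlap in Maf/Clbn2 nuclei was not particular to this list. Voltage-gated channel genes summed to 14938 to 15575 CPM in CON and 16497 to 16728 CPM in TESS. The listed peptide genes summed to 2117 to 3710 CPM in CON and 1068 to 2000 CPM in TESS. Cholesterol synthesis genes summed to 603, 301 and 781 CPM in CON and 181, 288 and 455 CPM in TESS, which overlap, with no member tested. In the heat shock list only Ubb, a polyubiquitin gene, was tested (-0.86 ± 0.40, edgeR adjusted p = 0.449). Of 19 clock genes 2 were tested (median -0.02), 3 of 32 measured oxidative phosphorylation genes were (median -0.02), and so was 1 of 15 unfolded protein response genes (-0.40).

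Synaptic and channel lists likewise had 0 called members, where 0.381% of all genes tested were called. The groups did not overlap in 15.7% of all genes tested, against which the counts without overlap below are to be read. Of 13 glutamate receptor genes tested, 10 were higher in TESS, with a median log2 difference of 0.11 and no overlap of the groups in 2 of 13, close to that background, Gria3 (0.50 ± 0.32) and Grin1 (0.61 ± 0.27). Of 10 GABA and glycine receptor genes 3 were higher, with a median of -0.16 and no overlap in 3 of 10, Glrb among them. Of 23 voltage-gated channel genes 15 were higher, with a median of 0.11 and no overlap in 4 of 23, also close to it, the potassium channel genes Kcnc2 (0.84 ± 0.38), Kcnj3 (-0.99 ± 0.37) and Kcnma1 (0.26) and the calcium channel subunit gene Cacna2d3 (0.36). Of 9 cerebellins and partners 4 were higher, with a median of -0.08, and the netrin receptor gene Dcc stood at -0.56 ± 0.23. Of 9 deep dorsal horn genes tested 6 were higher, with a median of 0.11 and overlap in all 9, and of 8 spinal transcription factor genes 6 were higher, with a median of 0.09 and no overlap in 1, Tcf4 (0.44). Maf stood at 0.25 ± 0.29, Rora at 0.11 ± 0.21 and Rorb at -0.14 ± 0.36. Of serotonin and dopamine receptor genes only Htr2c was tested (-0.29 ± 0.38).

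The peptide gene Nts was too unevenly spread to be tested. It had 38, 28 and 11 UMIs in CON and 4, 2 and 4 in TESS, or 279, 527 and 132 CPM against 103, 82.2 and 182 CPM, so that TESS 3 lay above CON 3. It was found in 11 of 50 nuclei of CON 1, 3 of 17 of CON 2, 5 of 36 of CON 3, and 1 nucleus of each TESS sample. In other excitatory neurons, where it could be tested, Nts fell by 1.16 ± 0.15 on the log2 scale (edgeR adjusted p = 1.29e-05).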

How the data were processed

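Counts of UMIs per gene and nucleus were used as the authors deposited them, with their annotation of cell types, library names and batch numbers. Cell Ranger 2.2.0 and Seurat 3, with the builds mm10 and GRCm38, are named per the submitters' processing notes. The metadata also hold a fraction per nucleus, as deposited by the authors, read from its values as the mitochondrial share of UMIs. The counting of introns and strand, the filters on nuclei and the treatment of doublets are not given in the sources, and no doublet caller was run. The table holds 0 columns of per-sample values that went unused. Counts were summed per sample over the 146 nuclei. Levels (CPM) are scaled to all UMIs of that sum. Tests used edgeR 4.0.16 in R 4.3.3 (quasi-likelihood, TMM, filterByExpr with a minimum count of 10), with no covariate for TESS against CON and with the sample as a block for the interaction, with calls at an adjusted p (Benjamini-Hochberg) under 0.05. Of these steps, only the edgeR test of TESS against CON was run on simulated counts, with the same dispersion for every gene. SE is that of the log2 difference. Coordinates come from GENCODE vM21 (GRCm38), to which 96.0% of symbols matched.

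The members, gene lists and tests were chosen with earlier results of these data known. Genes named in TESS against CON are the called ones without overlap, filled to 8 per direction by the smallest p, with 12 always given (Fos, Fosb, Junb, Egr1, Arc, Npas4, Nr4a1, Per1, Nts, Gal, Htr1a and Drd1). For the interaction the 5 smallest p are named, and as markers the 20 highest and 8 lowest ratios with 1 direction in 6 samples. List members and the host genes Nrg3 and Asic2 given besides were chosen after their values were seen. Values of some list members are not reported here. Alternatives were DESeq2 1.42.0, total counts, other filters, batch, thinning to 500 or 300 UMIs, other comparison classes, a replicate block and leaving out each sample.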

Additional observations from a re-analysis of the deposited data

How the results depend on the processing

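The count of called genes in TESS against CON (3) was 0 with batch as a term, 0 with nuclei thinned to 500 UMIs (83 genes tested) and 0 with DESeq2, and the cause was not tested for batch and DESeq2. None of the 3 called genes was among the 83 tested after thinning, so that count cannot show whether their calls hold at equal depth. It ran from 1 to 4 when each sample was left out, and was 2 or 3 under the other alternatives. Without a low-count filter 13591 genes were tested, and the median log2 difference was -0.50 in place of 0.01. Of the 2 genes called there, 1 was among the 3, Gm20642. The interaction count stayed at 0 except without TESS 3, where 1 gene was called (range 0 to 1), the noncoding RP23-231J2.1. That count was 0 as well with Fxyd6 and V1/V2b/Slit2, which the transmitter rule counts as inhibitory, added to the other excitatory neurons, an alternative chosen after seeing the data. The directions of the share and of the median depth held under all their alternatives. Leaving out each sample moved the share difference from -1.78 to -0.467 points, the depth difference from -926 to -391 UMIs and the immediate early gene log2 ratio from 0.40 to 1.34. With a CPM offset of 50 the genes higher by over 1 log2 unit were 30 in place of 49. The highest correlation with another subtype was 0.906 by Spearman. Thinned to 300 UMIs, 13.0% of nuclei held Maf. Opcml reversed with batch as a term (-0.046) and within batch 3 (-0.10), and so did Rasgrf1 (-0.14 and -0.19). Malat1, not called with all samples, passed without CON 1 (-0.97, edgeR adjusted p = 0.00162). Unc80 stood at 1.42 within batch 3, where TESS 1 is the lone stimulated sample.

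With the replicate number as a block edgeR called 2 genes, Tshz3 and Gm20642, and Gm11418 missed the threshold (adjusted p = 0.0692), while the interaction count was 0. Deviations from the group means of same-numbered samples correlated at 0.003, 0.005 and -0.014, so the numbers were not taken as a pairing. Depth limits these nuclei: TESS sums held 21999 to 38735 UMIs.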
